A study of Rattus norvegicus with 44 samples.

Results

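In 4 of the 12 older vehicle-treated rats (AV), the dentate gyrus (DG) held high levels of Prf1, the transcript of perforin, the protein with which killer lymphocytes make holes in their targets. These rats, named 3989, 3999, 4009 and 4568, had a summed normalized Prf1 value of at least 100 and are called Prf1-high here, and they were compared with the other 8 AV rats. The series holds 44 male F344 rats with 1 RNA-seq library each: 10 young rats (YNG, 6 months), the 12 AV rats, and 11 older rats given ABT-263 (AA) and 11 given dasatinib plus quercetin (ADQ). The authors' group label of the YNG rats is Young - Vehicle. The labels give 12 months as the age of every older rat, which by the methods of the study was the age at which treatment by oral gavage started. Treatment then spanned 6 months before behavioral testing, per the methods, so the DG came from rats older than 12 months. Older rats were divided at random into the AV, AA and ADQ groups, per the methods. The DG was dissected from the hippocampus, per the methods, so the libraries are of bulk tissue. Because the 4 rats were chosen by their Prf1 value, every difference between them and the other AV rats is given as a description, with no test.

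Cytotoxic lymphocytes, which are CD8 T cells and natural killer (NK) cells, kill by releasing perforin and granzymes, and they secrete the chemokine CCL5 and interferon-gamma. Interferon-gamma acts on many cell types and raises guanylate-binding proteins, the peptide transporter of MHC class I and, in antigen-presenting cells, MHC class II. The healthy brain holds few lymphocytes, and those that enter pass the endothelium of the blood-brain barrier (BBB), whose adhesion molecules and growth factor receptors change when the vessel wall is activated. In bulk tissue, more cells of a type and more RNA per cell cannot be told apart.

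Estimated depth was 12121658 to 22310504 reads in the Prf1-high rats and 13515978 to 22159415 in the other AV rats. The numbers of the older rats fell into 2 ranges, up to 4011 and from 4031, which the labels do not call a batch. Rats 3989, 3999 and 4009 and 3 of the other AV rats had the lower numbers, and rat 4568 and 5 of the others the higher. The ranges also differed in the share of the signal held by 1 transcript, AABR07000398.1. It was 0.80 to 1.33% in the other AV rats with the lower numbers and 4.14 to 5.85% in those with the higher. In rats 3989, 3999 and 4009 it was 0.42, 1.09 and 1.58%, and in rat 4568 9.67%. The cause was not tested. Rat 3989 stood apart in tissue content. Its summed CA1 pyramidal cell markers were 26974 against 1984 to 24413 in the other 8 AV rats, its summed hemoglobin markers were 30819 against 1511 to 16390, and its dentate granule cell markers were 6079 against 6871 to 12820. Rat 4009 had a choroid plexus marker sum of 1417 against 74.9 to 694. The part of these differences in the results was not tested, and counts are therefore also given without rat 3989.

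The rule used Prf1, whose normalized value was 228 in rat 3989, 199 in rat 3999, 461 in rat 4009 and 267 in rat 4568. The nearest rat outside the set was 4571 with 13.9, and the other 7 AV rats lay between 1.07 and 4.53. No rat of the YNG, AA or ADQ groups was above 7.92. The gap between the lowest rat inside and the nearest outside was wide, so that any threshold between 13.9 and 199 gave the same 4 rats.

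Nkg7, a granule protein of cytotoxic lymphocytes, was 48.1, 33.3, 214 and 91.1 in the same order of rats, and at most 1.13 in the other AV rats. Ccl5, the T cell and NK cell chemokine, was 112, 145, 529 and 487, against a lowest value of 1.02, a median of 2.25 and a highest of 11.9 in the other AV rats, where the highest was again rat 4571. Neither gene overlapped between the sets, and the 4 rats with the highest Nkg7 among AV rats were the same 4. Gzmk, a granzyme, was 14.1, 20.2, 210.1 and 173 against at most 1.13. Tbx21, the transcription factor T-bet of type 1 lymphocytes, was 32.1, 12.4, 105 and 203 against at most 4.96. Rats 4009 and 4568 thus carried the larger values of Nkg7, Ccl5, Gzmk and Tbx21, while rats 3989 and 3999 were lower in each.

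**Figure D1:**
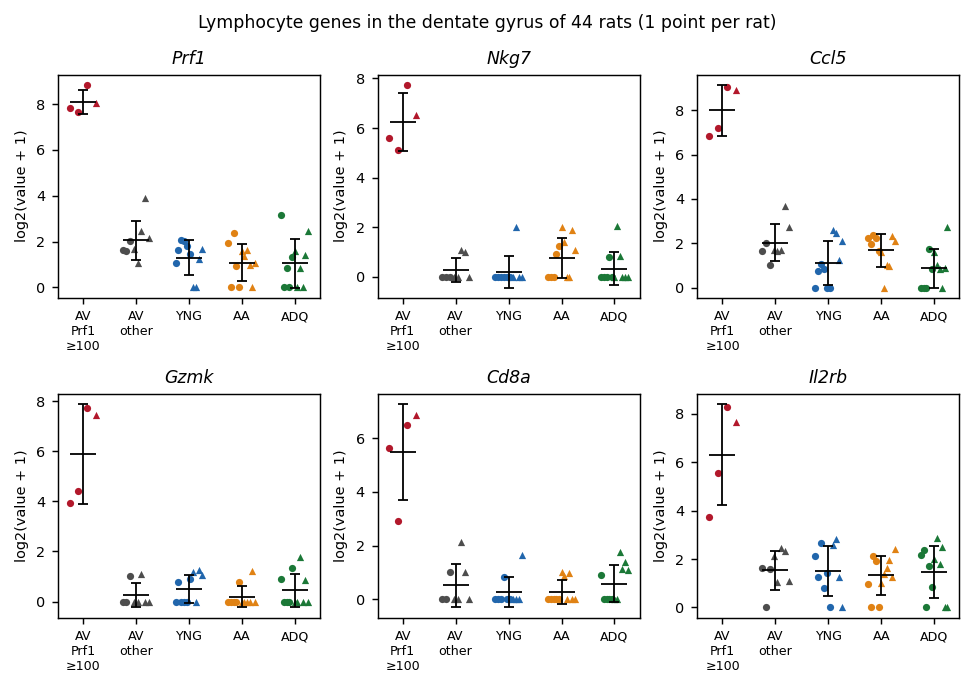
Normalized expression of 6 lymphocyte genes on the log2(value + 1) scale (y axis) in each of the 44 rats by set (x axis). Circles are rats with the lower and triangles with the higher range of numbers, and bars are the mean ± SD. The 4 Prf1-high rats lie above every other rat in each panel, and for Prf1 they lie between 199 and 461 normalized units.

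Of 25 cytotoxic effector genes listed, 23 were in the table and 9 had a mean of at least 5 over all rats, the limit for a gene to be kept. The 5 that did not overlap between the sets (Prf1, Nkg7, Ccl5, Gzmk and Tbx21) reached that mean only through the Prf1-high rats, so their count is no evidence of its own. Of all 2749 genes below the limit, 61 (2.22%) were higher in each Prf1-high rat than in every other AV rat. Among the 14 cytotoxic genes below the limit there were 8: Ccl3, Ccl4, Cst7, Gzma, Gzmb, Gzmc, Klrg1 and Runx3. Gzmb, granzyme B, was 28.2, 41.1, 51.2 and 15.1 in rats 3989, 3999, 4009 and 4568 and listed at about 0 in the other 8 AV rats. These members were chosen for naming after their values were seen.

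NK cell receptors were mostly below the limit. Of 8 such receptors, 5 did not overlap between the sets, beside the 2.22% of all genes below the limit, namely Klrd1, Klre1, Klri1, Klrk1 and Ncr1. Ncr1, the NKp46 receptor of NK cells, was 4.72, 9.78, 44.8 and 33.4, against at most 1.99 in the other AV rats. Klrk1, the NKG2D receptor shared by NK and CD8 T cells, was 2.83, 5.87, 20.3 and 29.5, and listed at 0 in the other 8. The 4 NK receptor genes that were kept overlapped between the sets, with a median difference of 0.66.

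The T cell genes were divided. Cd8a, the CD8 co-receptor chain, was 49.1, 6.52, 88.5 and 117, against at most 3.40, and Cd247, the signaling chain shared by the T cell receptor and NK receptors, was 10.4, 11.1, 36.3 and 39.8 against at most 9.63. Cd3e, an invariant chain of the T cell receptor, was not higher: it was 159, 26.7, 1.07 and 3.85, against 0 to 233 with a median of 60.8 in the other AV rats, and Cd4 differed by 0.06 ± 0.30 (SE) on the log2 scale. Cd3e was therefore low in the pair of rats, 4009 and 4568, in which Cd8a and Gzmk were highest. Ncr1 was also highest in that pair (44.8 and 33.4), and whether T cells or NK cells expressed Cd8a was not tested. In all, 2 of 16 kept genes of T cell receptor signaling were higher without overlap, and both, Cd8a and Cd247, reached the mean of 5 only through the Prf1-high rats, so their count is no evidence of its own.

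Of the receptors for lymphocyte cytokines, Il2rb and Il2rg did not overlap between the sets, and both reached the mean of 5 only through the Prf1-high rats. Il2rb, the chain shared by the interleukin-2 and interleukin-15 receptors, was 12.3, 45.6, 311 and 200.3 against at most 4.53. Il2rg, the common gamma chain, was 119.8, 63.0, 86.8 and 48.4 against at most 8.93. Il2ra, Il15ra, Il12rb1, Il18r1 and Il18rap, receptor genes below the limit and named after their values were seen, overlapped. Ptprc, the leukocyte antigen CD45, was 137, 80.2, 195 and 236, and its range in the other AV rats was 14.98 to 64.5. Of 25 kept lymphocyte cytokine and homing genes, 6 were higher without overlap (also Gimap5, Rac2 and Gimap9), of which Ptprc, Gimap5, Rac2 and Gimap9 reached the mean of 5 without the Prf1-high rats, and the list's median difference was 0.83. Of 10 B and plasma cell genes in the table, 2 were kept. One of these was Sdc1, with 39.6, 12.4, 11.7 and 16.7 against at most 8.23. The other, Cd22, overlapped and differed by -0.021 on the log2 scale. Of the 8 below the limit, 1 (Tnfrsf13c) was higher without overlap, beside 2.22% of all genes below the limit. The list's per-rat median was 0.24 to 1.52 in the Prf1-high rats and reached 2.97 in the treated older rats.

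Across all genes, 289 of 15598 (1.85%) were higher in each Prf1-high rat than in every other AV rat and 28 (0.18%) were lower in each. Without the 66 genes that were kept only through the Prf1-high rats, of which 15 were higher, 274 of 15532 (1.76%) remained on the higher side. A difference of at least 1 on the log2 scale was reached by 187 of the higher and 4 of the lower genes, while the median difference over all kept genes was -0.017. Rat 3989 held the highest value of the 4 for 157 of the 289 genes, and rats 3999, 4009 and 4568 for 42, 49 and 41. Without rat 3989, 367 genes (2.35%) were higher and 119 were lower. The number of lower genes was also raised by leaving out rat 3999 (65), 4009 (89), 4568 (63) or the other AV rat 4011 (44), since fewer rats overlap less often. Between the 3 rats and the 3 others with the lower numbers, 970 genes were higher and 492 lower. A count in 1 list is read below against the 1.85% of all genes. The lists share members, so their counts are not separate results. Vwf is in the lists of BBB endothelium and endothelial adhesion, and Angpt2 in those of endothelial adhesion and vessel growth. Kdr is in those of BBB endothelium and vessel growth, Adm and Vegfa in those of low oxygen and vessel growth, and Nlrc5 in those of interferon and MHC class I. Ccl5 is in those of cytotoxic effectors and chemokines. Below the limit, Cst7 is in those of cytotoxic effectors and activated microglia, and Itgax in those of complement and activated microglia.

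**Figure D2:**
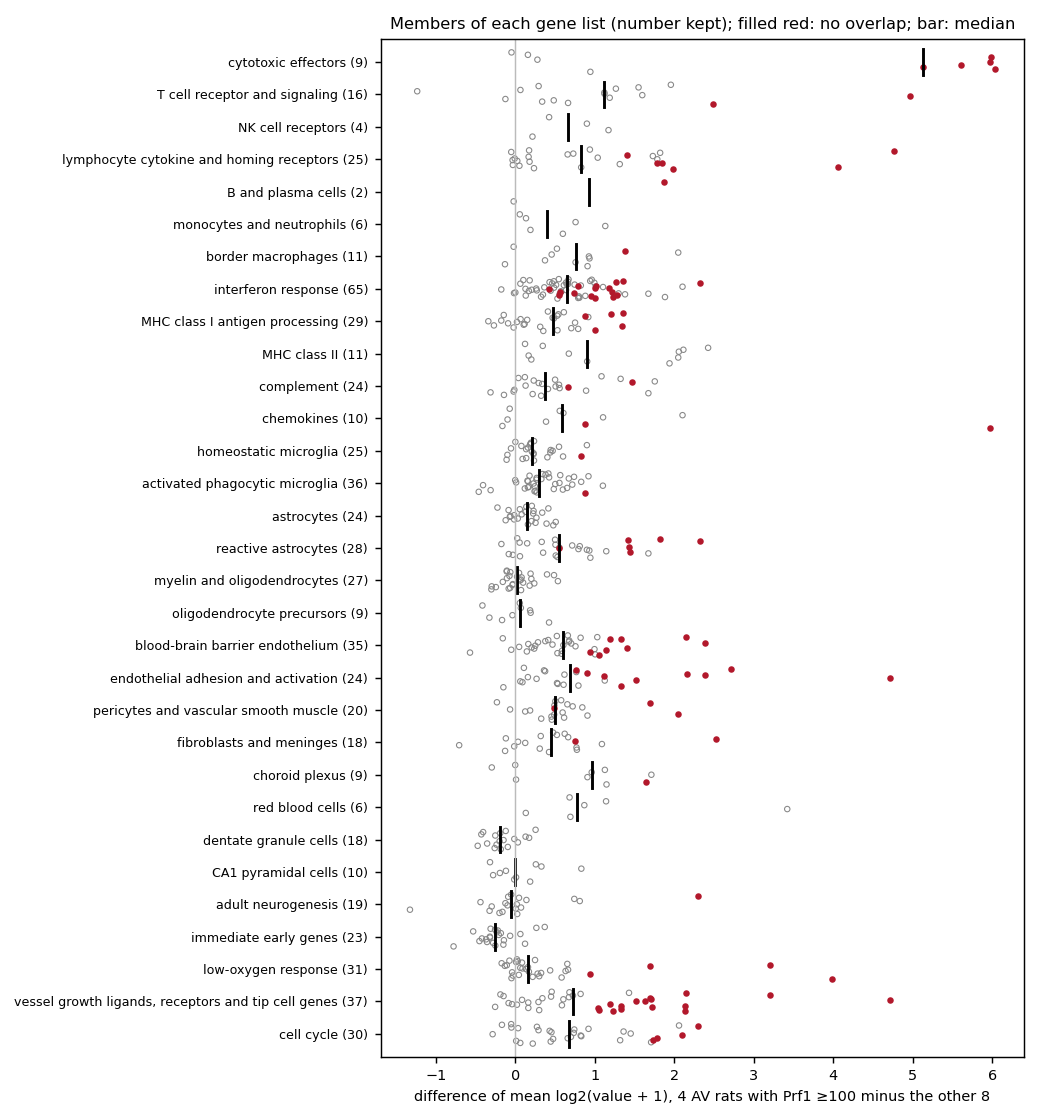
Difference of mean log2(value + 1) between the 4 Prf1-high rats and the other 8 AV rats (x axis) for each kept member of 31 gene lists (y axis, number kept in parentheses). Filled red points are genes whose sets did not overlap, open points the rest, and bars the list medians. Cytotoxic effectors have the median furthest to the right at 5.13, vessel growth genes have 16 filled points, and myelin and dentate granule cell genes have none.

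Interferon response genes were higher in the Prf1-high rats. Of 65 kept, 16 (24.6%) were higher without overlap, none was lower, 63 had a positive difference, and the median difference was 0.65. Without rat 3989 the count was 21 of 65. The median was 0.80 among rats with the lower numbers and 0.41 for rat 4568 against the others with the higher numbers, and per rat it was 0.65, 1.01, 0.51 and 0.36, each above the 0.23 that was the top of the other AV rats.

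Gbp2, a guanylate-binding protein raised by interferon-gamma, was 219, 376, 118 and 121 in rats 3989, 3999, 4009 and 4568, against a lowest value of 19.5, a median of 34.95 and a highest of 59.5. Irf1, a transcription factor raised by interferon, was 271, 393, 239.9 and 290.1 against 156, 171 and 199.6. Both genes were also above every one of the other 40 rats of the series, and they differed by 2.32 ± 0.44 (SE) for Gbp2 and 0.74 ± 0.16 for Irf1 on the log2 scale. Nlrc5, the activator of MHC class I genes, differed by 1.35 ± 0.33, Ifitm1, an antiviral membrane protein, by 1.28 ± 0.21, and Slfn2, of the Schlafen family, by 1.27 ± 0.26. Oas1a, an antiviral enzyme, was 64.1, 56.8, 39.9 and 54.5 against 11.2 to 33.2, while other antiviral members overlapped between the sets. Isg15, a ubiquitin-like modifier, was 74.5, 92.6, 54.4 and 37.2 against 24.5 to 87.7, and Irf7, the type I interferon regulator, was high only in rat 4009 (323, against 84.7 to 117 in the remaining 3). Mx1, an antiviral GTPase, was 27.6, 100.2, 105 and 83.1 against 12.2 to 36.5, and only rat 3989 was within the range of the others.

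The promoters of 4 of these genes are shown because they hold the core of the interferon-stimulated response element (ISRE), to which interferon-activated factors bind. The last 150 bases before the annotated start are printed 5′ to 3′ on the strand of the gene, from RefSeq with the GRCr8 build, with the core in capitals.
Gbp2 (chr2:234005577-234005726, + strand): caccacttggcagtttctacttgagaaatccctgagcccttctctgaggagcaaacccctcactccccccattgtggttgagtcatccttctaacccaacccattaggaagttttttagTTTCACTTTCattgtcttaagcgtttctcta
Parp14 (chr11:78407984-78408133, + strand): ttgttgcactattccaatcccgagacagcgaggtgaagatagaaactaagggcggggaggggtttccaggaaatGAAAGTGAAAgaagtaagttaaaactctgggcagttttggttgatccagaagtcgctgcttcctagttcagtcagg
Oas1a (chr12:41330316-41330465, + strand): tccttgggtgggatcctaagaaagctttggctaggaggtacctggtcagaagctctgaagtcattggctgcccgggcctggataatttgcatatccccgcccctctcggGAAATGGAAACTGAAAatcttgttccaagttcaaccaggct
Tap1 (chr20:4668544-4668693, - strand): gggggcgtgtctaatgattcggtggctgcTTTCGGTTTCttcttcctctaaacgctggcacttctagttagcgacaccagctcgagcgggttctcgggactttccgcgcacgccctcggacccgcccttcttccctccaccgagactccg
The core was searched as GAAA, any 2 bases and GAAA again, on both strands, in 300 bases around each start (250 before and 50 after). In Gbp2 and Tap1 it lay on the opposite strand, and in Oas1a a pair of overlapping matches made 1 run. It began 31 bases before the start in Gbp2, 76 in Parp14, 41 in Oas1a and 121 in Tap1.

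The ISRE core was held by 4.12% of 27457 rat promoters and by 3.04% of the 10908 kept genes matched to a promoter. It was held by 21 of the 207 matched genes that were higher in the Prf1-high rats (10.1%), and by 8 of the 12 matched interferon genes among them, as against 32 of the 50 matched interferon genes kept (64%). The share in the interferon genes that did not overlap was thus about that of their whole list. The core of the hypoxia response element, ACGTG, was held by 20.9% of all promoters, by 25.9% of the matched kept genes, by 43 of the 207 higher genes (20.8%) and by 1 of the 13 matched vessel growth genes that were higher. A match of letters is a description and not evidence of binding.

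Tap1, the peptide transporter of MHC class I, was 175, 359.9, 269.6 and 231 against a lowest value of 91.3, a median of 125 and a highest of 157. RT1-N3, a class I gene, was 59.3, 99.7, 65.2 and 66.7 against 16.7, 28.7 and 36.7. In all, 5 of 29 kept genes of MHC class I antigen processing (17.2%) were higher without overlap (also Nlrc5, RT1-T24-3 and RT1-A1), and their median difference was 0.47. B2m, the light chain of class I, was 6964, 5016, 3623 and 3027 against 1976 to 3591, and rat 4568 fell within the other AV rats. The RT1, Gbp, Slfn, Oas, Gzm and C4 families hold near-identical copies, so reads may have been divided among their members.

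MHC class II, which presents antigen to CD4 T cells, did not follow Prf1 in every rat. Cd74, the invariant chain, was 1273 in rat 3989 and 4005 in rat 3999, and 246 and 253 in rats 4009 and 4568, against a lowest value of 83.3, a median of 193 and a highest of 448 in the other AV rats. RT1-Da, a class II alpha chain, was 369, 893, 77.8 and 35.9 against 16.5, 38.2 and 85.2. The rats with the lower Nkg7, Ccl5, Gzmk and Tbx21 values (3989 and 3999) were thus the ones with high class II, while the pair with the higher values (4009 and 4568) lay within the other AV rats. None of 11 kept class II genes was higher without overlap, with a median difference of 0.90 that was 1.09 among the lower rat numbers and -0.098 for rat 4568. Cd74 and RT1-Da were named after their values were seen.

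**Figure D3:**
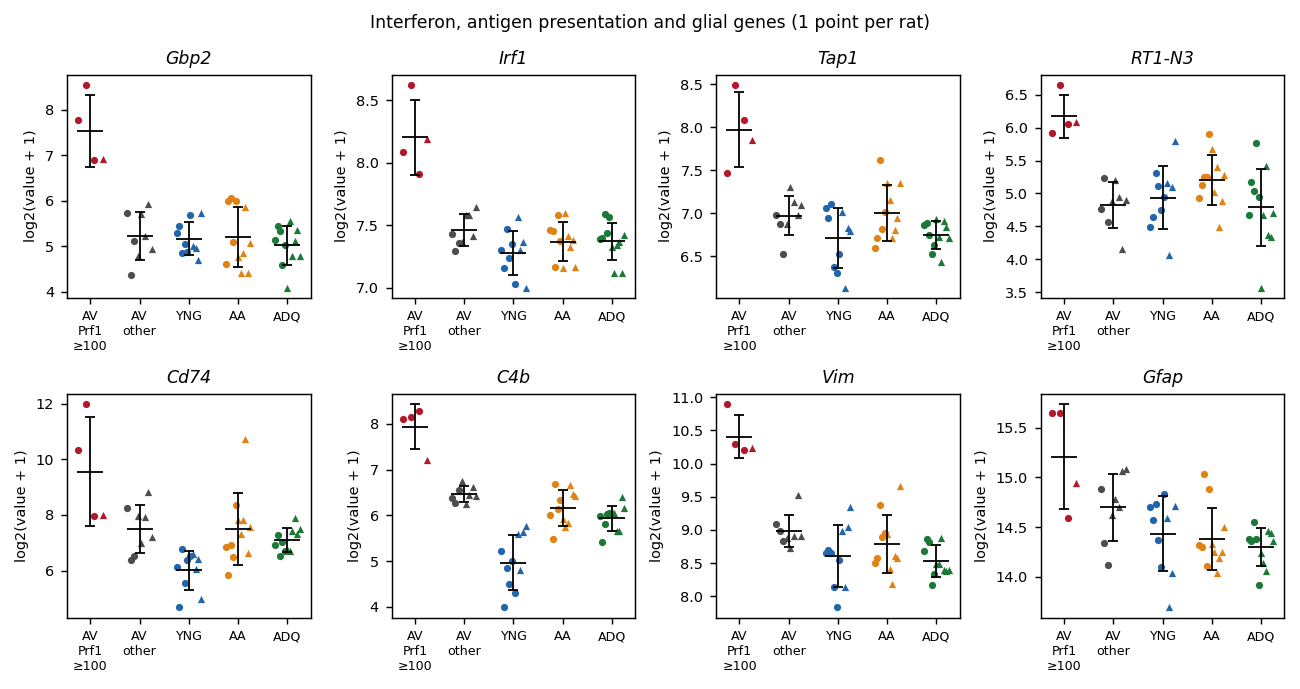
Normalized expression on the log2(value + 1) scale (y axis) of 8 interferon, antigen presentation, complement and astrocyte genes in each of the 44 rats by set (x axis), with symbols and bars as mean ± SD drawn as in the plot of lymphocyte genes. Gbp2, Irf1, Tap1, RT1-N3, C4b and Vim separate the Prf1-high rats from the other AV rats, whereas Cd74 is high in only 2 of the 4 (1273 and 4005) and Gfap overlaps.

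Microglial identity genes did not separate the sets. The sum of 4 microglia markers was 3058 to 4481 in the Prf1-high rats and 2977 to 5072 in the other AV rats. Tmem119, a surface protein of resident microglia, was 558, 489.7, 512 and 354 against 459 to 652, and Cx3cr1, the fractalkine receptor, was 507, 593, 597 and 467 against 452 to 771. Of 25 kept homeostatic microglia genes 1 was higher without overlap (4%), namely Sparc, a matricellular protein that endothelial cells also make, with 13811, 7697, 6723 and 6175 against 3729 to 5731. Of 36 kept genes of activated phagocytic microglia 1 was higher (2.78%), namely Itgb2, the beta chain of leukocyte integrins, with 383, 282, 262 and 427 against 141 to 238. Of the 6 activated genes below the limit, Cst7 and Itgax were higher without overlap, beside the 2.22% of all genes below the limit. Cst7 was already counted among the cytotoxic genes. It was 3.77, 11.7, 20.3 and 14.1 against at most 2.82, and Itgax was 16.0, 9.13, 35.7 and 55.0 against at most 6.95. Both were highest in rats 4009 and 4568, and which cells expressed them was not tested. The median difference of the activated list was 0.30, and it ranged by rat from 1.06 in rat 3989 over 0.46 and 0.073 to -0.11 in rat 4568.

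Complement genes were mostly shared between the sets. C4b, a component of the classical pathway, was 274, 282, 309 and 146 against a lowest value of 75.2, a median of 85.7 and a highest of 106, and C1qc, a chain of the C1q recognition molecule, was 1722, 1108, 1189 and 1036 against 613, 765 and 1022. Those 2 of 24 kept genes (8.33%) were higher without overlap. C3, the central component, was 3710.4 in rat 3999 and 1321, 706 and 688 in rats 3989, 4009 and 4568, against 587 to 1252. Among 10 kept chemokines, Ccl5 and Cxcl12 did not overlap, and Ccl5 reached the mean of 5 only through the Prf1-high rats. Of the 7 chemokines that reached that mean without those rats, 1 (Cxcl12) did not overlap. Cxcl12, a chemokine of vessel walls, was 3192, 1127, 1329 and 1529 against 749 to 1044.

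Astrocyte identity genes did not separate the sets either, while part of the reactive astrocyte list did. None of 24 kept astrocyte genes was higher without overlap, and their median difference was 0.15. Of 28 kept reactive astrocyte genes, 6 (21.4%) were higher without overlap, with a median difference of 0.55. Vim, the intermediate filament vimentin, was 1899, 1259.8, 1182 and 1204 against a lowest value of 425, a median of 481 and a highest of 737. Fbln5, an elastic fiber protein, differed by 1.82 ± 0.38 (SE), Emp1, a membrane protein, by 1.44 ± 0.16, and Osmr, the oncostatin M receptor, by 1.41 ± 0.35, and Gbp2 and S1pr3 were the remaining 2. Gfap, a filament protein of astrocytes, was 51346, 51280.3, 24768 and 31405 against 17749 to 34758, so that only rats 3989 and 3999 exceeded the other AV rats. Vim, Fbln5, Emp1 and Gbp2 are also expressed by endothelial or mural cells, which bulk values do not separate from astrocytes.

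Vessel genes were higher in the Prf1-high rats. The sum of 3 endothelial markers (Cldn5, Cdh5 and Flt1) was 3331 to 6631 in the Prf1-high rats and 1474 to 2581 in the other AV rats, without overlap, and the pericyte sum was 1149 to 1457 against 716 to 1108. The endothelial sum was at most 2970 in the YNG, AA and ADQ rats. The pericyte sum overlapped with that of YNG (624 to 1311) and AA rats (703 to 1244), but not of ADQ rats (699 to 1012). Of 35 kept BBB endothelial genes, 8 (22.9%) were higher without overlap, with a median difference of 0.60, and of 24 kept genes of endothelial adhesion and activation 9 (37.5%) were, with a median of 0.69. Without rat 3989 the counts were again 8 and 9.

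Vwf, the clotting factor stored in endothelial granules, was 7244, 2789, 3519 and 3069 against a lowest value of 597, a median of 716 and a highest of 903. Cdh5, the cadherin of endothelial junctions, was 445, 438, 307 and 348 against 73.8, 156 and 189, and Esam, an endothelial adhesion molecule, was 759, 361, 514 and 430.1 against 137, 207 and 261. Each of these was above all 40 other rats. Cldn5, the claudin that seals the BBB, was 3276, 1646, 1994 and 2432 against 707 to 1652, so that rat 3999 lay just inside the other AV rats.

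Endothelial activation genes were divided. Angpt2, a ligand that endothelial cells release on activation and that opposes Angpt1 at the receptor Tek, was 1634, 307, 381 and 487 against a lowest value of 7.14, a median of 21.5 and a highest of 33.9. It differed by 4.72 ± 0.59 (SE) on the log2 scale, and no rat outside the set was above 42.2. Angpt1 was 28.3, 28.04, 31.99 and 33.4 against 27.8 to 50.4, and Tek 302, 327, 149 and 203 against 118 to 198, and both overlapped. Lrg1, a secreted glycoprotein of activated endothelium, differed by 2.72 ± 0.51, Cd93, an endothelial lectin, by 2.16 ± 0.19, and Sele, the selectin that captures leukocytes, by 1.33 ± 0.38, each without overlap. The classical leukocyte adhesion molecules Icam1 and Vcam1 were not separated: Icam1 was 204, 132, 81.0 and 65.5 against 41.8 to 109, and Vcam1 was 853, 518, 451 and 348 against 409 to 566. Angpt1, Tek, Icam1 and Vcam1 were named after their values were seen.

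**Figure D4:**
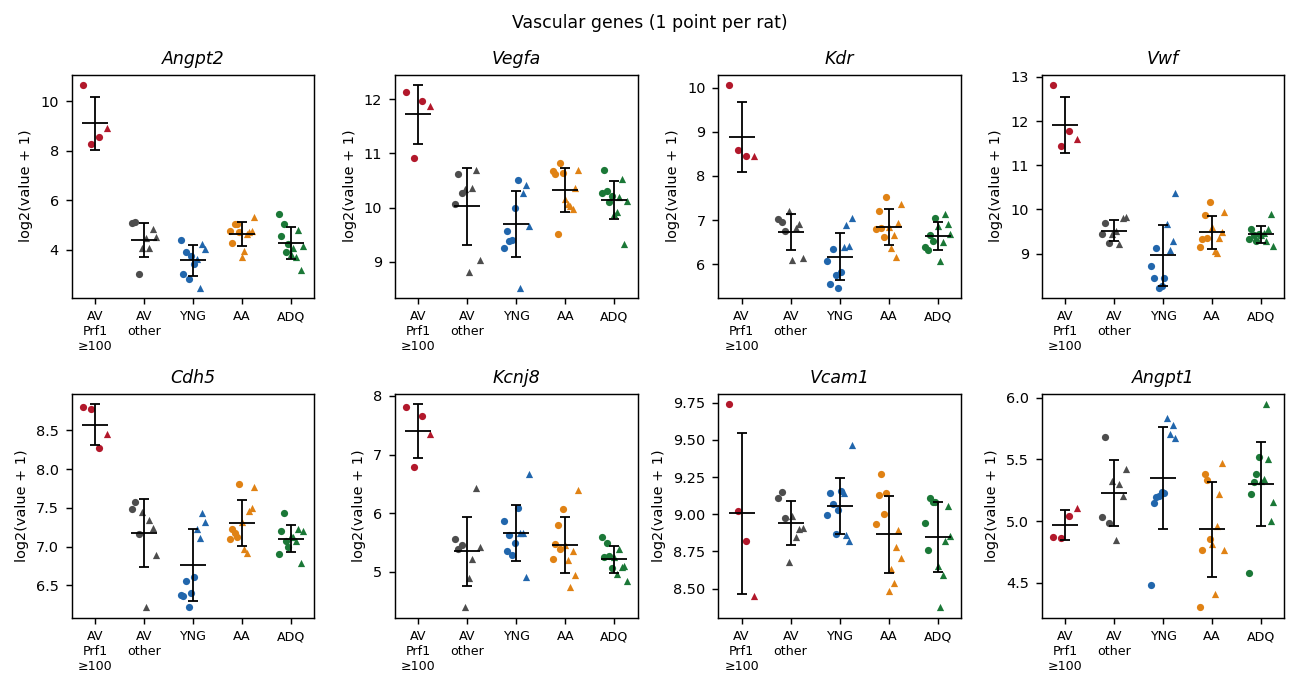
Normalized expression on the log2(value + 1) scale (y axis) of 8 vessel genes in each of the 44 rats by set (x axis), with symbols and bars as mean ± SD drawn as in the plot of lymphocyte genes. Angpt2, Vegfa, Kdr, Vwf, Cdh5 and Kcnj8 lie above the other AV rats in all 4 Prf1-high rats, with Angpt2 at 307 to 1634, while Vcam1 and Angpt1 overlap.

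A list of vessel growth ligands, receptors and tip cell genes, which was added after values had been seen, had 16 of 37 kept genes (43.2%) higher without overlap and a median difference of 0.72. Vegfa, the main growth factor of vessels, was 4481, 1928, 3986 and 3759 against a lowest value of 452, a median of 1267 and a highest of 1649.5, and its receptor Kdr was 1071, 381, 349.8 and 348 against 67.4, 116 and 147. Adm, the vasodilator peptide adrenomedullin, differed by 3.21 ± 0.52 and Apold1, an endothelial early response gene, by 2.14 ± 0.39. Dll4, the Notch ligand of tip cells, was 211, 106, 163 and 153 against 31.6 to 80.2, and Flt1, Flt4, Pgf, Vegfc, Jag1, Notch4, Pcdh12, Nid1, Nid2 and Col4a1 were the further members without overlap. A low-oxygen list, also added later, had 4 of 31 genes (12.9%) higher, among them Adm, Vegfa and Slc2a1, while its median difference was 0.16. Of these 4 genes, 3 reached the mean of 5 without the Prf1-high rats. Slc2a1, the glucose transporter of BBB endothelium, was 4734, 2689, 3447 and 3313 against at most 2326.

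Mural cell and matrix genes were higher in part. Kcnj8, a potassium channel subunit of pericytes, was 223, 109, 200.5 and 163 against a lowest value of 20.1, a median of 41.6 and a highest of 85.4, and its partner Abcc9 was 374, 337, 397 and 345 against 63.1, 120.2 and 169. Pdgfrb, the growth factor receptor of pericytes, differed by 0.49 ± 0.12, and these 3 of 20 kept genes (15%) did not overlap. Fn1, fibronectin of the vessel matrix, was 12585, 4038, 5772 and 5198 against 698, 1109 and 1441. Fn1 and Slc6a13, a GABA transporter of meningeal cells, were the 2 of 18 kept fibroblast and meningeal genes without overlap.

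Neuronal, myelin and neurogenesis lists did not separate the sets. None of 18 dentate granule cell genes, 10 CA1 genes, 27 myelin genes, 9 oligodendrocyte precursor genes and 23 immediate early genes was higher or lower without overlap, and the medians were -0.19, -0.0027, 0.021, 0.056 and -0.25. Of 19 neurogenesis genes 1 was higher, Top2a, a topoisomerase of dividing cells, with 19.8, 43.04, 37.3 and 48.8 against 2.27 to 14.7. In a cell cycle list that was added later, 4 of 30 genes (13.3%) were higher (also Mcm5, Cdk6 and Aurkb), with a median of 0.68, and Mki67, the proliferation marker Ki-67, was 139.6, 333, 306 and 313 against 110.2 to 219, with rat 3989 inside the range of the others. Top2a and Mcm5, a DNA replication helicase subunit, were lowest in rat 3989 among the 4.

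Genes of other cells that dissection or blood could bring in were mixed. Choroid plexus genes had a median difference of 0.96, with 1 of 9 higher (Trpv4, a cation channel), but their per-rat medians were 0.49, 0.057, 2.10 and 0.79 against -0.46 to 0.62 in the other AV rats. Ttr, the main choroid plexus product, was 108, 29.3, 1224 and 80.9 against 20.3 to 582. None of 6 red blood cell genes was separated, with a per-rat median of 2.91 in rat 3989 and -0.64 in rat 4568. The monocyte and neutrophil list had 0 of 6 kept genes and 0 of 9 below the limit higher without overlap, but the sum of its 3 defining markers in the table was 10.7 to 162 in the Prf1-high rats and 0 to 8.93 in the other AV rats, which did not overlap. S100a8, a neutrophil protein named after its values were seen, was 106, 2.61, 2.13 and 33.4 against at most 3.40. The border macrophage list had 1 of 11 higher, Folr2, a folate receptor of perivascular macrophages, with 32.1, 19.6, 18.1 and 17.97 against 3.06 to 16.98. The part of these cells in the results was not tested.

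**Figure D5:**
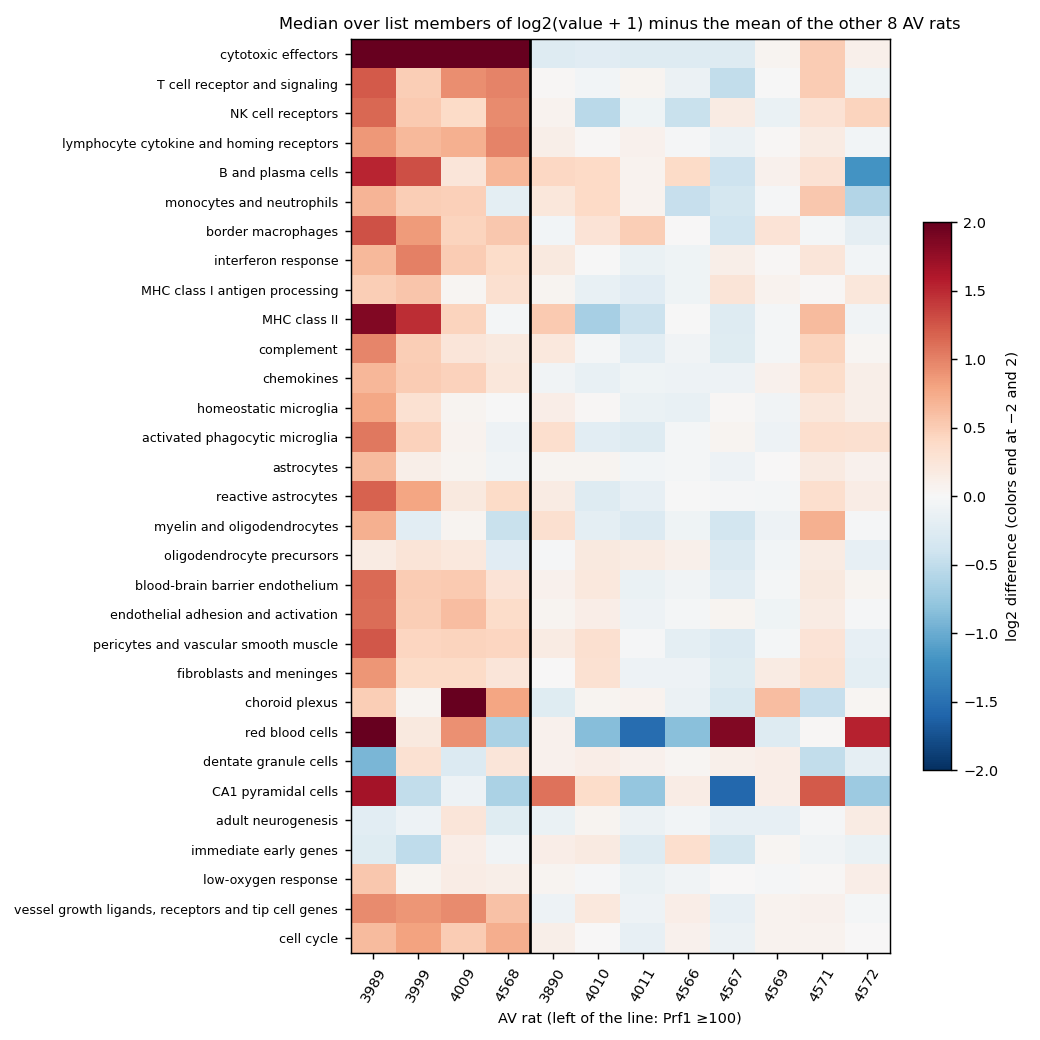
Each cell is the median over the kept members of a gene list (y axis) of log2(value + 1) in 1 AV rat (x axis) minus the mean of the other 8 AV rats, with red above and blue below and colors ending at 2 and -2. The rows for cytotoxic effectors, interferon response, endothelium and vessel growth are red in all 4 Prf1-high rats, while MHC class II is 1.85 and 1.48 in rats 3989 and 3999 but -0.045 in rat 4568.

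Among genes with a mean of at least 20, the largest differences outside the lists belonged to Abca4, a lipid transporter of the retina that was 395, 95.2, 122 and 142 against at most 12.7, and Slfn4, a Schlafen protein of myeloid cells, at 48.1, 101, 365 and 142 against at most 16.4. Alox15, a lipoxygenase, was 2663, 79.5, 511 and 168 against at most 61.0, so that its mean rested largely on rat 3989. Anxa2, a membrane-binding annexin, was 481, 274, 205 and 352 against at most 82.2, and Pla1a, a phospholipase, was 484, 181, 212 and 259 against at most 67.9. All 5 genes were above every one of the other 40 rats. The mean of at least 20 was taken over all rats, the Prf1-high rats included. A gene could therefore reach it through the Prf1-high rats, so its place among the largest rises is no evidence of its own. For Abca4 and Slfn4, no other AV rat reached 20.

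Fewer genes were lower. Tnnc2, a troponin of fast muscle, was 28.3, 12.4, 4.27 and 11.6 against a lowest value of 47.0, a median of 83.9 and a highest of 208, a difference of -2.90 ± 0.56 (SE). Slc25a18, a mitochondrial glutamate carrier of astrocytes, was 374, 334, 356 and 129.7 against 417 to 715. Calr3, a calreticulin, differed by -0.91 ± 0.23, Plin4, a lipid droplet coat protein, by -0.78 ± 0.23, and Hes5, a Notch target of neural stem cells, by -0.71 ± 0.28.

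Compared with all 40 other rats rather than with the other AV rats, 142 genes (0.91%) were higher in each Prf1-high rat and 2 (0.0128%) were lower. These held 13 of the 37 vessel growth genes, 7 of the 35 BBB endothelial genes, 6 of the 65 interferon genes, 5 of the 28 reactive astrocyte genes and 0 of the 11 class II genes. The other 8 AV rats differed from YNG rats by a median of 0.12 over the interferon list and 0.31 over the BBB endothelial list, against 0.77 and 0.99 for the Prf1-high rats, and these values share the YNG rats. Rat 4571, which had the highest Prf1 among the other AV rats, had a cytotoxic median of 0.50, the highest of the 8. It was also the highest of the 8 in the medians of interferon (0.23), class II (0.63), complement (0.45), reactive astrocyte (0.34) and endothelial adhesion genes (0.17), while its vessel growth median of 0.092 was not the highest. Rat 4571 was likewise the highest of the 8 for CA1 (1.23), myelin (0.72), homeostatic microglia (0.23) and astrocyte genes (0.18). For dentate granule cell genes it was the lowest (-0.49). The part of tissue content in its medians was not tested.

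The rule did not use the 22 treated older rats, and the question whether the same genes go with Prf1 there was tested by a slope of log2(value + 1) on that of Prf1, fitted with limma within AA and ADQ. Prf1 reached 7.92 in these rats at most, which is a few reads. At an unadjusted p of 0.05, 753 of 15597 genes had a positive slope (4.83%) and 785 a negative slope (5.03%), and none passed after Benjamini-Hochberg adjustment (0.0%), the smallest adjusted p being 0.481. Of the 288 genes other than Prf1 that were higher in the Prf1-high rats, 2 had a positive and 18 a negative slope. Nkg7 had a slope of -0.30 ± 0.22 (SE; limma adjusted p = 0.624), Ccl5 of 0.085 ± 0.22 (limma adjusted p = 0.904), Gbp2 of -0.12 ± 0.13 (limma adjusted p = 0.742), Angpt2 of 0.078 ± 0.13 (limma adjusted p = 0.848) and Vwf of -0.066 ± 0.066 (limma adjusted p = 0.718). No slope passed after adjustment at this range of Prf1. Slopes below 0.5 and counting noise in Prf1 were not simulated, so the fit cannot decide whether the same genes go with Prf1 there.

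By list, the interferon genes had 1 positive and 2 negative slopes of 65, the BBB endothelial genes 1 and 0 of 35, and the reactive astrocyte, complement and class II genes 0 and 0. The red blood cell list had 4 positive slopes of 6, among them Hbb with 0.32 ± 0.14 (limma adjusted p = 0.491). The strongest slopes by p belonged to Kmt2d, a histone methyltransferase, with -0.29 ± 0.066 (limma adjusted p = 0.481), Atxn1, with -0.25 ± 0.056, and Cramp1, with -0.19 ± 0.047, both at the same adjusted p. The counts of positive slopes were 429 without AA rat 3985, 473 without ADQ rat 3994 and 1224 without ADQ rat 4004, and the negative ones 489 without AA rat 3985, and none passed adjustment in any of these. A difference in slope between AA and ADQ passed adjustment for no gene (507 genes at an unadjusted p of 0.05, smallest limma adjusted p = 0.989).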

How the data were processed

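Transcriptional profiles of the DG were available for 44 rats, with 1 library each (poly(A) selection, Ion sequencing). The authors aligned reads to rn6 with STAR 2.5.3a in Partek Flow and normalized them by median ratio, per the methods and the submitters' processing notes, which also name DESeq2. The annotation is not given in the sources used here. The deposited table holds signal values (reads of a row scaled by library), and its rows were summed per gene (24694 rows, 18347 genes). Of the low values, 79.0 to 83.8% were whole multiples of 1 read (tolerance 0.05 reads), so no count test was run, and depth was estimated from that step at 10165977 to 24326960 reads. Depth limits the genes near 1 read.

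GEO's labels give only age, and the treatment of each rat was read from the authors' attribute table. Values were taken as log2(value + 1), and genes with a mean of at least 5 were kept (15598). "Without overlap" means that all rats of 1 set were above or below all of the other. SE is that of the difference of 2 means. Slopes on Prf1 in the 22 AA and ADQ rats were fitted with limma 3.58.1 in R 4.3.3, with a term for treatment, two-sided, with the study's unadjusted p of 0.05 and Benjamini-Hochberg adjustment. On simulated data for this comparison (15597 genes), 94.5% of 200 genes with a slope of 0.5 were found and 5.05% of unchanged genes were called. Both shares are at the unadjusted threshold and with Prf1 taken as exact. They do not give the share found after adjustment, or with counting noise in Prf1. Figures were drawn with matplotlib 3.10.9. The rats and the gene lists were chosen with earlier results of these data known. Named genes were Prf1, Nkg7 and Ccl5, in each list the 4 members without overlap with the largest difference and the 3 with the smallest slope p, the 10 largest rises and 5 largest falls among genes with a mean of at least 20, and the 10 smallest slope p. Genes outside that rule were named after their values were seen, and some results are not reported here. Alternatives were another pseudocount, filters, scaling, leaving out each rat, 1 range of rat numbers, another covariate and added terms. Promoters (GRCr8) are not of the build of the table, so no position of the table was used. Rats are separate animals, and p-values measure the spread between them.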

Additional observations from a re-analysis of the deposited data

Results flagged for a closer look

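For 40 genes, the highest and the lowest rat were compared with the rest of their set in the Prf1-high, other AV and YNG rats (120 combinations), and 13 stood apart from the others of their set. Chance gives about 1 in 20. In rat 3989 of the Prf1-high set, Vim (1899, next 1259.8), Emp1 (161, next 116), Osmr (58.5, next 26.7) and Kdr (1071, next 381) were above the other 3, and Mki67 (139.6, next 306) was below them. In rat 4568, C4b was below the other 3 (146, next 274). Among the other AV rats, Vim was high in rat 4571 (737, next 544). Among YNG rats, Sele was at 0 in rat V9 (next 3.36), Cd8a was high in V12 (2.17, next 0.764), Abca4 was low in V3 (1.08, next 4.997), Ttr was low in V2 (6.32, next 25.02), Nkg7 was high in V10 (3.01, others at 0) and Alox15 was low in V10 (7.52, next 22.2). The YNG values of Cd8a, Nkg7 and Abca4 are of a few reads. Of the 6 values in the Prf1-high set, 5 were of rat 3989, the rat that also had the highest hemoglobin and CA1 marker sums of the AV rats.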

How the results depend on the processing

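The 289 higher and 28 lower genes were within 1.5 times of these counts with a pseudocount of 5, without a filter (350 and 31), with a mean of at least 20 (224 and 25), with upper quartile scaling (319 and 19), with the rats divided by Nkg7, and with a mean of at least 5 over the 40 other rats. The counts were 970 and 492 within the lower rat numbers (3 against 3 rats), and 142 and 2 against all 40 other rats. Both the number of rats and which rats were compared changed there, and the cause was not tested. Leaving out each AV rat gave 300 to 399 higher and 32 to 119 lower genes. For the named genes, 1894 of the recomputed differences moved by less than the spread between rats and 11 by more, of which 8 were with a pseudocount of 5, which bears most on genes near 0 in the other AV rats.

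The 753 positive and 785 negative slopes became 307 and 391 with terms for choroid plexus and CA1 markers, 274 and 471 with Nkg7 in place of Prf1, 331 and 374 with library total as a covariate, and 198 and 275 in dasatinib plus quercetin rats alone (the cause was not tested). Leaving out each treated rat gave 429 to 1224 and 489 to 1091. The adjusted count was 0 in every one of these fits, leaving out each rat included. With Nkg7 as the covariate, the slopes of Kmt2d (0.18), Atxn1 (0.16) and Cramp1 (0.12) changed sign. Within dasatinib plus quercetin rats alone and ABT-263 rats alone, and against all 40 other rats, the settings were chosen after seeing the data. No paired analysis was possible because the replicate numbers only name the rats.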
